A study of Mus musculus with 6 samples.

Results

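The TSH receptor and the cAMP signalling chain behind it were followed in thyroid RNA-seq as 10 genes, *Tshr*, *Gnas*, *Prkaca*, *Prkar1a*, *Prkar2b*, *Pde8b*, *Pde4d*, *Creb1*, *Creb3* and *Crem*, chosen by name out of the 21878 genes counted. Whole thyroid glands came from untreated female mice aged 12 weeks. There were 3 *Thy-Tet1*+/+ mice, labelled WT, and 3 *Thy-Tet1*-/- mice, labelled TET1 KO, in which the floxed *Tet1* gene is meant to be removed in thyroid follicular epithelial cells and not in the other cells of the gland. The comparison asks how thyroid transcripts differ when follicular cells lack TET1, an enzyme that oxidises methylated cytosine.

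Thyroid-stimulating hormone (TSH) from the pituitary drives the follicular cell through its receptor TSHR, which couples mainly to the stimulatory G protein alpha subunit encoded by *Gnas*. Adenylyl cyclase then makes cyclic AMP (cAMP), which binds the regulatory subunits of protein kinase A (PKA) and frees its catalytic subunits. Phosphodiesterases break cAMP down again. PKA phosphorylates the factors CREB1 and CREM, which act at cAMP response elements in the promoters of their targets. In the thyroid this chain supports iodide uptake, hormone synthesis and growth.

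Libraries held 8867683 to 19950898 counts in all. Levels are given as CPM, counts scaled to the library size after TMM (trimmed mean of M-values) correction. By library totals without that correction, 3 counts corresponded to 0.150 to 0.338 CPM, a floor that covers counting error only. The targeted gene *Tet1* had 5.70, 3.80 and 3.44 CPM in the *Thy-Tet1*+/+ libraries. It had 9.37, 9.60 and 12.3 CPM in those labelled *Thy-Tet1*-/-, called knockout-labelled below. Its transcript level thus went against the label, without overlap between groups (log2 fold change 1.28, SE 0.28, adjusted p = 0.101 by edgeR and 0.0012 by DESeq2). It also met the limits for a call that are given below. By immunostaining, the paper reported less TET1 protein and less hydroxymethylated cytosine in thyroids of *Thy-Tet1*-/- mice. Whether those mice included the sequenced ones is not given in the sources used here. Counts were per gene, and reads on a deleted exon were not analysed here. Every direction below is therefore one between labels. Defining follicular markers were abundant in all 6 libraries, with *Tg*, the thyroglobulin gene, between 190900 and 313700 CPM. Markers of neighbouring tissue varied between libraries, with mean log2 CPM of the skeletal muscle list between 1.33 and 9.58 and of the parathyroid list between 2.68 and 7.87. The lymphocyte and thymocyte list was between -1.39 and 4.78, highest in *Thy-Tet1*-/- replicate 3 and next in *Thy-Tet1*+/+ replicate 1 (2.74). No covariate was fitted for that list. In bulk tissue, fewer cells of a type and less RNA per cell cannot be told apart.

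All 10 members had enough counts to be tested, among 14143 genes, with edgeR's quasi-likelihood test. A gene was called when its fold change was beyond 1.5 with an unadjusted p under 0.05, limits that 9.2% of all tested genes met in either direction and 3.66% met by being lower in the knockout-labelled libraries. Of the 10 members, 1 passed, the receptor *Tshr*, which was lower. The median log2 fold change of the members was -0.05 and that of all tested genes was 0.00, with 3 members above 0 and 7 below. Groups did not overlap for 3 members, *Tshr*, *Prkar1a* and *Creb3*, each lower in the knockout-labelled libraries. Across all tested genes, 26.8% did not overlap in either direction, near the 30% of the members. Those that did not overlap and were lower made up 14.3% of all tested genes. The members' share is above that, and it rests on 3 genes.

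**Figure D1:**
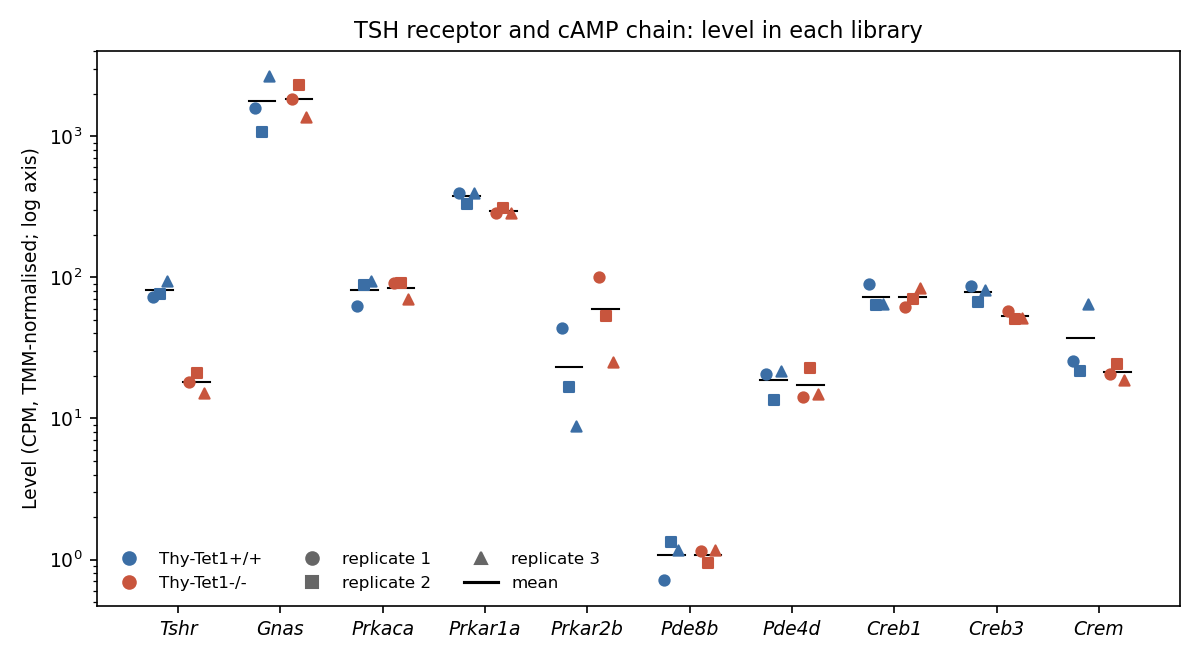
Level of each of the 10 genes in each library, as TMM-scaled CPM on a log axis (y axis), with the genes in the order of the chain (x axis), colour for the group, symbol for the replicate and a bar at the group mean. *Tshr* is the gene whose groups stand farthest apart, at 72.1 to 94.7 CPM against 15.0 to 21.1 CPM, while *Gnas*, *Prkaca*, *Pde8b*, *Pde4d* and *Creb1* overlap.

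Levels of different genes can be compared only per length, here as CPM per kilobase of the longest annotated transcript, which leaves out that genes such as *Gnas*, *Pde4d* and *Crem* have several isoforms of other lengths. On that scale the order in *Thy-Tet1*+/+ was *Gnas* (449 ± 207, SD, n = 3), *Prkar1a* (107 ± 10.4), *Creb3* (41.6 ± 5.64), *Prkaca* (35.7 ± 7.14), *Tshr* (18.8 ± 2.79), *Crem* (12.8 ± 8.13), *Creb1* (8.65 ± 1.72), *Prkar2b* (6.85 ± 5.47), *Pde4d* (4.42 ± 1.05) and *Pde8b* (0.253 ± 0.0763). *Creb3* and *Prkaca* overlapped each other, and so did each neighbouring pair from *Tshr* down to *Pde4d*. In the knockout-labelled libraries *Tshr* was in place 8, at 4.20 ± 0.702 CPM per kilobase (SD, n = 3), below *Crem* and overlapping *Pde4d*. *Prkar2b* was in place 5 there, at 17.7 ± 11.3 CPM per kilobase (SD, n = 3).

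*Tshr* (NCBI gene 22095) encodes the G protein-coupled receptor for TSH and spans chr12:91400993-91540509 on the forward strand (GRCm38.p6, the assembly behind the mm10 build named for these counts). It had 608, 1424 and 1706 counts in the *Thy-Tet1*+/+ libraries, or 72.1, 76.2 and 94.7 CPM. In the knockout-labelled libraries it had 334, 356 and 296 counts, or 18.2, 21.1 and 15.0 CPM. Each knockout-labelled library lay well below each *Thy-Tet1*+/+ library, although the *Thy-Tet1*+/+ library with the fewest *Tshr* counts was also the shallowest. The means were 81.0 ± 12.01 and 18.1 ± 3.03 CPM (SD, n = 3 each), a fall of 4.47-fold (log2 fold change -2.16, SE 0.17, edgeR adjusted p = 0.0466). Among all tested genes this was number 11 from the most lowered. By edgeR, 16 genes (0.113%) had an adjusted p under 0.05, *Tshr* among them, and by DESeq2 1192 did (8.43%), with an adjusted p of 3.08e-23 for *Tshr*. The edgeR adjusted p was 0.0661 to 0.190 when any single library was left out, so that each of the 6 decides whether *Tshr* passes at 0.05, while the log2 fold change stayed between -2.29 and -2.03. With the muscle, adipocyte or parathyroid score as a covariate the log2 fold change was -2.005, -2.12 or -2.24 (edgeR adjusted p = 0.134, 0.218 and 0.0951).

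The receptor was next set against the follicular content of each library. Expressed as log2 CPM of *Tshr* minus the mean log2 CPM of 10 follicular cell genes, it was -1.63, -1.51 and -1.14 in *Thy-Tet1*+/+ and -3.57, -3.35 and -3.67 in the knockout-labelled libraries. The difference was -2.10 log2 units (exact permutation test, two-sided, p = 0.10, which is the lowest value possible with 3 against 3). Against 10 general epithelial genes in place of the follicular ones it was -1.82 (exact permutation p = 0.10). The epithelial list was itself lower in each knockout-labelled library, at a mean log2 CPM of 7.57 to 7.58 against 7.69 to 8.13, with 8 of its 10 genes below 0 and *Cdh1* and *Krt8* called lower. Of the 10 follicular genes, 9 could be tested, 1 was called higher and 1 lower, and their mean log2 CPM was 7.70 to 7.81 in *Thy-Tet1*+/+ and 7.60 to 7.77 in the knockout-labelled libraries. *Slc26a4*, the gene for pendrin, had 1 to 5 counts per library.

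Individual follicular genes had smaller fitted differences. *Nkx2-1*, a transcription factor of thyroid identity, was higher (log2 fold change 0.65, SE 0.22, edgeR adjusted p = 0.192), and *Iyd*, the iodotyrosine deiodinase gene, was lower (log2 fold change -0.62, SE 0.22, edgeR adjusted p = 0.204), both past the limits. *Nkx2-1* was inside them without *Thy-Tet1*+/+ replicate 3, *Thy-Tet1*-/- replicate 1 or *Thy-Tet1*-/- replicate 3 (0.46, 0.53 and 0.64), and *Iyd* without any single library but *Thy-Tet1*+/+ replicate 1. *Pax8*, another thyroid transcription factor, had 258, 262 and 258 CPM in *Thy-Tet1*+/+ and 339, 330 and 369 CPM in the knockout-labelled libraries, higher without overlap but inside the fold limit (log2 fold change 0.42, SE 0.11, adjusted p = 0.127 by edgeR and 0.000486 by DESeq2). *Tg* had a log2 fold change of -0.43, also without overlap and inside the limit. *Slc5a5*, the sodium-iodide symporter gene, had a log2 fold change of 0.12 with overlapping groups. Direct tests of *Tshr* against each of these genes were not run. Transcripts of the TSH subunits *Tshb* and *Cga* reached at most 1 count in a library, the ligand being made in the pituitary, and *Lhcgr* and *Fshr*, the related gonadotropin receptors, lay at or below 0.214 CPM. Of these 6 glycoprotein hormone and receptor genes 0 could be tested.

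**Figure D2:**
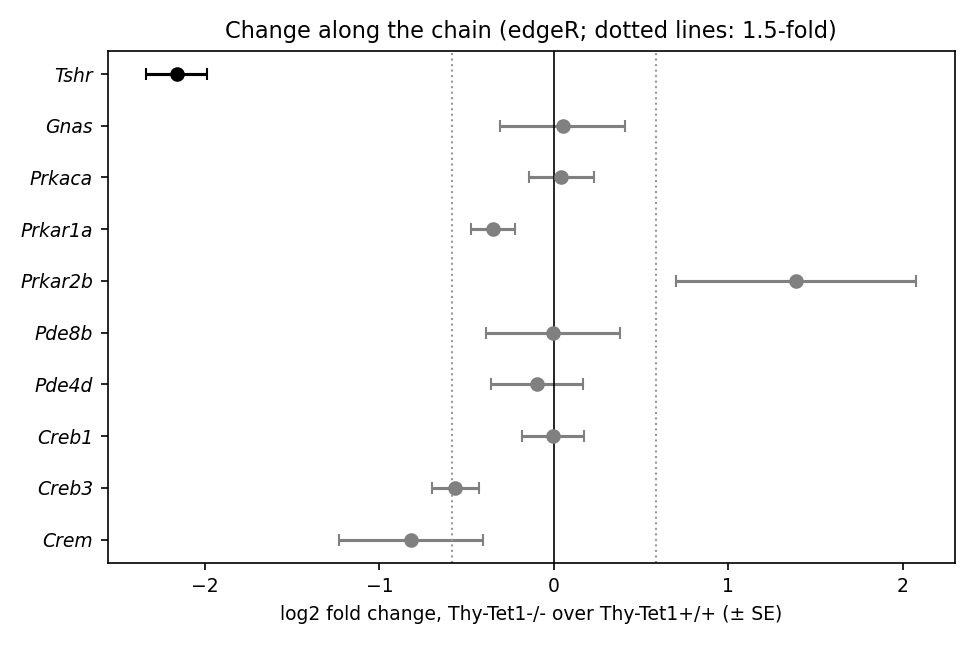
Log2 fold change of each of the 10 genes (x axis, knockout-labelled libraries over *Thy-Tet1*+/+), with bars for the standard error derived from edgeR's test and dotted lines at 1.5-fold, black for a gene past the limits. *Tshr*, at -2.16, is the gene past them, and *Prkar2b*, at 1.39, has a standard error of 0.69.

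*Gnas* (chr2:174284320-174346744, forward strand) encodes the stimulatory alpha subunit that carries the signal from the receptor to the cyclase, and was the most abundant member per length. It had 1587, 1066 and 2670 CPM in the *Thy-Tet1*+/+ libraries and 1831, 2314 and 1370 CPM in the knockout-labelled libraries. The groups overlapped completely, and the log2 fold change was 0.05 (SE 0.36, edgeR adjusted p = 0.957). The highest libraries were *Thy-Tet1*+/+ replicate 3 and *Thy-Tet1*-/- replicate 2 and the lowest was *Thy-Tet1*+/+ replicate 2. Of the 6 markers used for chief cells of the parathyroid, *Pth*, *Chga*, *Casr*, *Gcm2* and *Tbx1* had the same 2 highest libraries and the same lowest one. The other, *Pthlh*, did not. It was low throughout, highest in *Thy-Tet1*+/+ replicate 1 (0.949 CPM) and lowest in *Thy-Tet1*-/- replicate 1 (0.654 CPM).

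The parathyroid list of 6 genes had a mean log2 CPM of 6.40, 2.68 and 7.87 in *Thy-Tet1*+/+ and 6.70, 7.49 and 6.81 in the knockout-labelled libraries. In *Thy-Tet1*+/+ replicate 2 *Gcm2* was at 0.214 CPM, against 32.9 to 75.5 CPM in the other libraries. Of the 6 markers, 5 had a log2 fold change above 0 and 0 passed the limits. Without *Thy-Tet1*+/+ replicate 2 the log2 fold change of *Gnas* was -0.21, and with the parathyroid score as a covariate it was -0.20 (SE 0.23, edgeR adjusted p = 0.695). Exons of *Gnas* overlap those of *Nespas* and *Gm20721* on the opposite strand, neither of which is in the count table, and whether counting used strand is not given in the sources used here.

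Genes that act beside *Gnas* were mostly within the limits. Of 21 other G protein subunits 0 passed the limits and 16 had a log2 fold change below 0. Groups did not overlap for 5 of them (23.8%, near the 26.8% of all tested genes). *Gnb1*, a beta subunit named after its values were seen, had 393, 391 and 379 CPM against 278, 296 and 287 CPM, a log2 fold change of -0.43 inside the fold limit (SE 0.11, adjusted p = 0.117 by edgeR and 4.15e-05 by DESeq2). *Gnb2*, the highest of them per length, had 0.21 (SE 0.21). Among 10 adenylyl cyclases 9 could be tested and 0 passed, with 8 above 0. *Adcy6*, the cyclase with the most counts per length, had 151, 142 and 135 CPM in *Thy-Tet1*+/+ and 220, 198 and 219 CPM in the knockout-labelled libraries. Those groups did not overlap, and the log2 fold change of 0.57 (SE 0.11, edgeR adjusted p = 0.0919) lay just inside the fold limit. DESeq2 gave it 0.59, past that limit (adjusted p = 1.82e-05), and edgeR gave 0.62 and 0.61 without *Thy-Tet1*+/+ replicate 1 or *Thy-Tet1*-/- replicate 2. By edgeR it was also past the limit, at 0.59 each, with RLE size factors, with at least 10 counts per library and with the parathyroid covariate. Under epithelial scaling it was at 1.01. Of 10 genes that desensitise or fold such receptors and G proteins, 1 passed, *Grk4*, a receptor kinase gene of low level (3.05 ± 0.411 and 4.78 ± 0.357 CPM, SD, n = 3 each, log2 fold change 0.65), which was inside the limits without any single library (0.54 to 0.75). *Grk5*, the highest kinase of that list per length, was at -0.36 with groups that did not overlap.

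**Figure D3:**
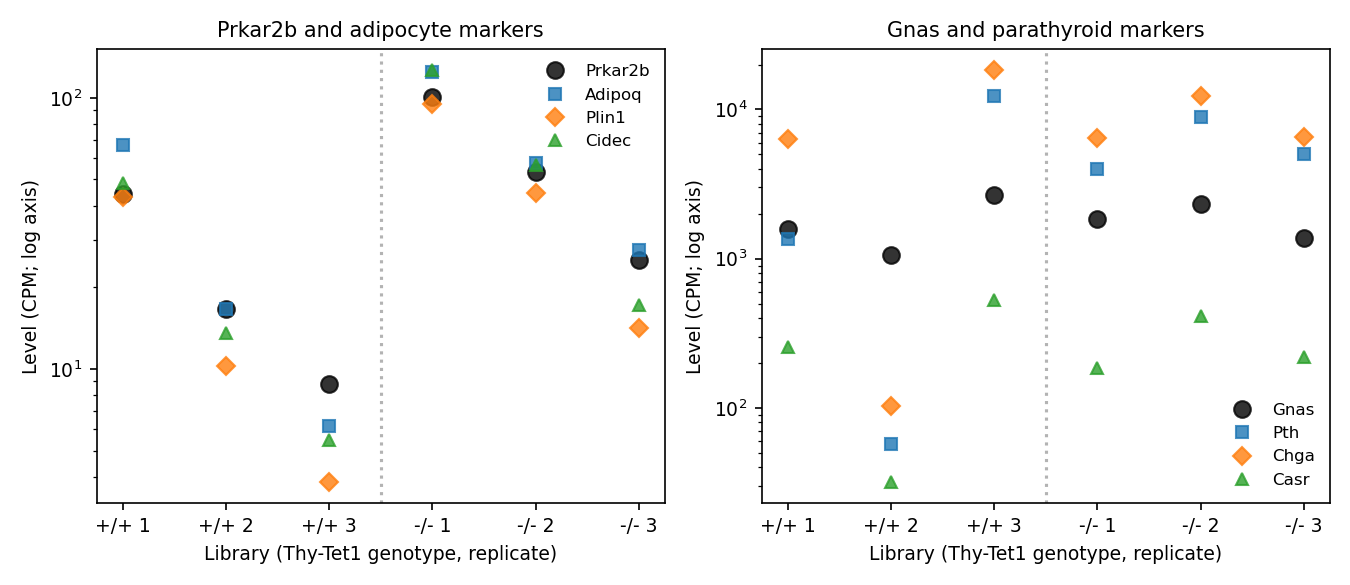
CPM on a log axis (y axis) of *Prkar2b* with 3 adipocyte markers (left) and of *Gnas* with 3 parathyroid markers (right) in each of the 6 libraries (x axis). *Prkar2b* has the same order of libraries as *Plin1* and *Cidec*, and *Gnas* is lowest in *Thy-Tet1*+/+ replicate 2, where *Pth* is at 57.2 CPM.

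*Prkaca* (chr8:83972978-83996444, forward strand) encodes the main catalytic subunit of PKA. It had 62.9, 87.6 and 93.5 CPM in *Thy-Tet1*+/+ and 91.2, 90.6 and 69.7 CPM in the knockout-labelled libraries. One low library in each group gave the spread, *Thy-Tet1*+/+ replicate 1 and *Thy-Tet1*-/- replicate 3. These libraries also had the highest mean log2 CPM of the lymphocyte and thymocyte list, 2.74 and 4.78, against -1.39 to -0.29 elsewhere. The part of that tissue in the *Prkaca* values was not tested. The log2 fold change of *Prkaca* was 0.04 (SE 0.19, edgeR adjusted p = 0.929). *Prkacb*, the other catalytic subunit and the highest of the other PKA genes per length, was at -0.15 (SE 0.16) with overlapping groups.

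*Prkar1a* (chr11:109649023-109669663, forward strand) encodes the type I regulatory subunit that holds the catalytic subunits inactive, and its loss is known to activate PKA in endocrine glands. It had 396, 332 and 394 CPM in *Thy-Tet1*+/+ and 287, 309 and 287 CPM in the knockout-labelled libraries. The highest knockout-labelled library lay below the lowest *Thy-Tet1*+/+ library. The log2 fold change was -0.35 (SE 0.12), under the fold limit, and the adjusted p was 0.209 by edgeR and 0.0472 by DESeq2. When libraries were scaled to the 10 epithelial genes, it was 0.08, while the median of all tested genes moved to 0.44.

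*Prkar2b* (chr12:31958450-32061648, reverse strand) encodes a type II regulatory subunit that is known as the main one of adipose tissue. Its levels were 44.0, 16.6 and 8.82 CPM in *Thy-Tet1*+/+ and 101, 53.3 and 25.3 CPM in the knockout-labelled libraries. Groups overlapped, since *Thy-Tet1*+/+ replicate 1 was above *Thy-Tet1*-/- replicate 3, and the highest library was 11.4-fold above the lowest. The log2 fold change of 1.39 had an SE of 0.69 (edgeR adjusted p = 0.330), and was 2.23 without *Thy-Tet1*+/+ replicate 1, past the limits, and 0.77 without *Thy-Tet1*-/- replicate 1. It was also past the limits without *Thy-Tet1*-/- replicate 3, at 1.76, by limma-voom, at 1.67, and when libraries were scaled to the 10 epithelial genes, at 1.78.

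The libraries stood in the same order for *Prkar2b* as for *Plin1* and *Cidec*, which coat lipid droplets in fat cells. *Adipoq*, the adiponectin gene, had 67.2, 16.6 and 6.16 CPM in *Thy-Tet1*+/+ and 124, 57.5 and 27.4 CPM in the knockout-labelled libraries. All 6 adipocyte markers had log2 fold changes above 0, with a median of 1.55, and 2 of them, *Ucp1* and *Lep*, passed the limits. Their mean log2 CPM was 2.30 to 5.18 in *Thy-Tet1*+/+ and 4.02 to 6.77 in the knockout-labelled libraries, and no marker was at 0 in any library. With this adipocyte score as a covariate the log2 fold change of *Prkar2b* was 0.03 (SE 0.15, edgeR adjusted p = 0.941).

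The makeup of the regulatory pool was computed within each library from the 4 regulatory subunit genes per kilobase. *Prkar1a* made up 79.9% ± 5.23 of it in *Thy-Tet1*+/+ and 74.3% ± 7.18 in the knockout-labelled libraries (SD, n = 3 each). *Prkar2a*, the other type II subunit, made up 13.3% ± 1.64 and 8.9% ± 1.5, without overlap. *Prkar2b* made up 4.92% ± 3.38 and 15.1% ± 8.56, with overlap, and *Prkar1b*, a type I subunit best known from neurons, 1.86% ± 0.330 and 1.77% ± 0.145 (SD, n = 3 each).

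Type II subunits together were 23.3%, 17.97% and 13.5% of the pool in *Thy-Tet1*+/+ and 31.5%, 23.1% and 17.3% in the knockout-labelled libraries. The groups overlapped and differed by 5.75 percentage points (two-sided exact permutation test, p = 0.50). With *Prkar2b* left out of both sums the share fell from 14.1% ± 2.18 to 10.4% ± 0.844 (SD, n = 3 each), a difference of -3.61 percentage points in the opposite direction without overlap (exact permutation p = 0.10, the smallest possible).

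**Figure D4:**
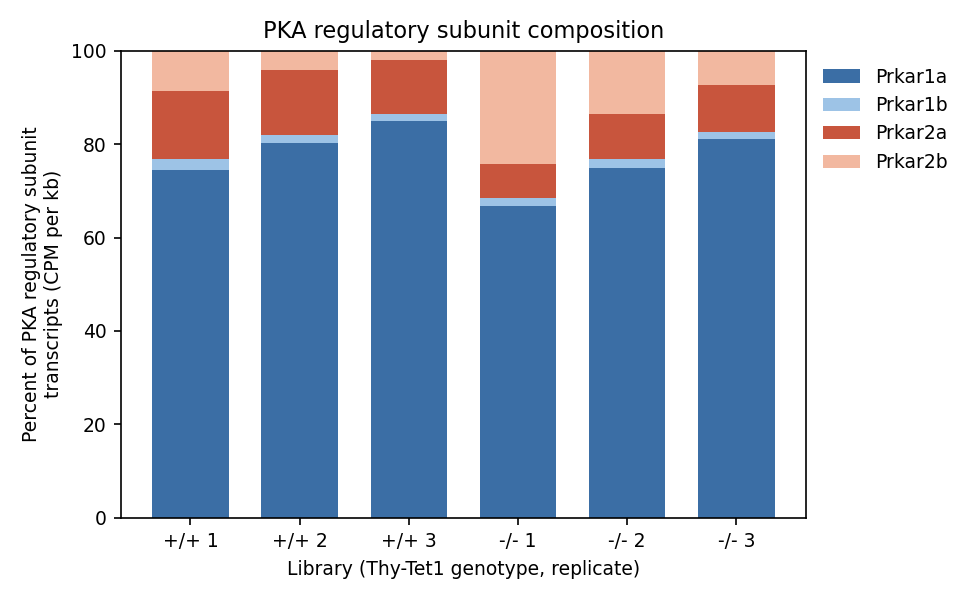
Percent of PKA regulatory subunit transcripts (y axis, CPM per kilobase) from each of the 4 genes in each library (x axis). *Prkar1a* is the largest part everywhere, from 66.7% to 84.95%, while *Prkar2a* is between 7.18% and 9.92% in the knockout-labelled libraries and between 11.5% and 14.7% in *Thy-Tet1*+/+.

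*Prkar2a* itself had 110, 80.6 and 75.3 CPM in *Thy-Tet1*+/+ and 43.6, 55.9 and 49.6 CPM in the knockout-labelled libraries, so that the groups did not overlap. Its log2 fold change was -0.83 (SE 0.18, edgeR adjusted p = 0.101, DESeq2 adjusted p = 0.00151), and it was the 1 of 7 other PKA subunits and inhibitors past the limits. Its fold was past 1.5 in every alternative but the epithelial scaling, where it was -0.41. Of 13 genes for A-kinase anchoring proteins, which tether PKA within the cell, 10 could be tested and 1 passed, *Akap5*, higher at a low level (0.775 ± 0.271 and 2.11 ± 0.692 CPM, SD, n = 3 each, log2 fold change 1.48, and 1.25, inside the limits, without *Thy-Tet1*+/+ replicate 2). *Akap8*, the highest of them per length, had a log2 fold change of 0.39 (SE 0.14). Among 7 genes for cAMP effectors other than PKA, the exchange factors and their small G proteins included, 0 passed, and *Rap1b* was at -0.23 (SE 0.14).

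The phosphodiesterase members, which end the signal, did not move past the limits. *Pde8b* (chr13:95024105-95250401, reverse strand) encodes a high-affinity cAMP phosphodiesterase known for its expression in thyroid. It had 6, 25 and 21 counts in *Thy-Tet1*+/+ and 21, 16 and 23 in the knockout-labelled libraries, or 0.712 to 1.34 and 0.948 to 1.17 CPM. At that depth its log2 fold change of 0.00 had an SE of 0.38, so that at this depth a difference was not detectable unless it was well above that error. *Pde8b* exons overlap *Gm48420* on the opposite strand, which the count table does not list.

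*Pde4d* (chr13:108654177-109955969, forward strand) encodes a cAMP phosphodiesterase with long forms that PKA phosphorylates and activates. Its levels were 20.5, 13.5 and 21.8 CPM in *Thy-Tet1*+/+ and 14.3, 22.9 and 14.9 CPM in the knockout-labelled libraries. High and low libraries occurred in both groups, and the log2 fold change was -0.10 (SE 0.26, edgeR adjusted p = 0.883).

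Other phosphodiesterases included genes past the limits in both directions, 1 higher and 2 lower of 14 tested. That is 21.4%, against 9.2% of all tested genes, and it rests on 3 genes. *Pde7b*, a cAMP-specific enzyme, had 78.4, 79.8 and 62.4 CPM in *Thy-Tet1*+/+ and 42.3, 43.9 and 34.8 CPM in the knockout-labelled libraries. The 2 groups were far apart, with a log2 fold change of -0.87 (SE 0.15, edgeR adjusted p = 0.0805, DESeq2 adjusted p = 0.000143), 1.82-fold lower. The calmodulin-dependent *Pde1c* was also lower (log2 fold change -0.78, SE 0.23) and its relative *Pde1b* higher (0.71, SE 0.23), both without overlap. *Pde1b* was inside the limits without *Thy-Tet1*+/+ replicate 2 or *Thy-Tet1*-/- replicate 2 (0.56 and 0.61). Under the epithelial scaling *Pde7b* and *Pde1c* were at -0.43 and -0.33, inside the fold limit. *Pde2a*, the highest of the list per length, was at 0.57 (SE 0.20) with overlapping groups.

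The transcription factor members stand at the end of the chain. *Creb1* (chr1:64532794-64604548, forward strand) encodes the prototype factor that PKA phosphorylates. It had 89.0, 63.2 and 65.0 CPM in *Thy-Tet1*+/+ and 61.9, 70.1 and 84.1 CPM in the knockout-labelled libraries. Both groups covered almost the same range, with a log2 fold change of 0.00 (SE 0.18, edgeR adjusted p = 0.993). The highest library of each group, *Thy-Tet1*+/+ replicate 1 and *Thy-Tet1*-/- replicate 3, also had its group's highest lymphocyte and thymocyte score. The part of that tissue in the *Creb1* values was not tested.

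*Crem* (chr18:3266354-3337773, reverse strand) encodes both activators and, from an internal promoter, cAMP-inducible repressors called ICER, which gene counts do not separate. Its levels were 25.6, 21.8 and 64.9 CPM in *Thy-Tet1*+/+ and 20.7, 24.4 and 18.8 CPM in the knockout-labelled libraries. *Thy-Tet1*+/+ replicate 3 stood alone above the other 5 libraries, which lay within 18.8 to 25.6 CPM. The log2 fold change was -0.82 (SE 0.41, edgeR adjusted p = 0.338) and without that library it was -0.16 (SE 0.18, edgeR adjusted p = 0.684). *Thy-Tet1*+/+ replicate 3 also had the highest parathyroid score, and with that score as a covariate *Crem* was at -1.07, past the limits (SE 0.28, edgeR adjusted p = 0.189). Without *Thy-Tet1*+/+ replicate 2 it was past them too, at -1.10. *Crem* exons overlap *Gm6225* on the opposite strand, which is not in the count table.

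*Creb3* (chr4:43562658-43567061, forward strand) encodes a factor of another kind, anchored in the endoplasmic reticulum membrane and released by proteolysis rather than switched on by PKA. It had 87.1, 66.6 and 81.7 CPM in *Thy-Tet1*+/+ and 57.6, 50.4 and 51.2 CPM in the knockout-labelled libraries. All knockout-labelled libraries were below all *Thy-Tet1*+/+ libraries, by 1.48-fold in the fit (log2 fold change -0.56, SE 0.13), just inside the limit of 1.5. The adjusted p was 0.113 by edgeR and 0.0113 by DESeq2. It crossed the fold limit when *Thy-Tet1*+/+ replicate 2 or *Thy-Tet1*-/- replicate 1 was left out (-0.67 and -0.65) and with the adipocyte or parathyroid covariate (-0.66 and -0.64), and was at -0.14 under the epithelial scaling. Of its 2372 exonic bases 360 overlap *Tln1* and 133 overlap *Gba2*, both on the opposite strand and both in the count table. Reads there cannot be told apart if counting ignored strand.

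Other factors of the family and their coactivators were mostly within the limits. Among 11 further CREB and ATF genes 10 could be tested and 1 passed, *Crebzf*, a bZIP factor without the usual DNA binding of the family. It had 42.2, 57.1 and 63.0 CPM in *Thy-Tet1*+/+ and 95.9, 84.7 and 108 CPM in the knockout-labelled libraries, clearly separated (log2 fold change 0.83, SE 0.18, edgeR adjusted p = 0.101, DESeq2 adjusted p = 0.00139). *Creb3l2*, a relative of *Creb3* and the highest of the list per length, was at -0.41 (SE 0.19) without overlap. Of 8 coactivators and the salt-inducible kinases that restrain them 0 passed, and *Sik1*, the highest of them per length and itself cAMP-inducible, had a log2 fold change of 0.33 (SE 0.36).

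CREB target genes, which are used as readouts of cAMP signalling in many tissues, moved in both directions. Of 13 tested, 3 were higher and 3 lower past the limits (46.2%, against 9.2% of all tested genes), and their median log2 fold change was -0.04. The list was chosen with earlier results of these data known, so this share describes the list and is not a test of CREB targets. Over the alternatives 4 to 7 passed, with 4 when *Thy-Tet1*-/- replicate 1 was left out and 4 with the adipocyte score as a covariate, where *Sst* (1.30) and *Dusp1* (-0.92) were inside the limits. *Per1*, a clock gene induced through CREB, had 104, 110 and 119 CPM in *Thy-Tet1*+/+ and 50.5, 50.8 and 39.8 CPM in the knockout-labelled libraries. That is a clear separation, 2.35-fold lower (log2 fold change -1.24, SE 0.13, edgeR adjusted p = 0.0466, and 0.0727 to 0.310 with any single library left out).

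*Per2*, the related clock gene, went the other way, with 27.8, 20.5 and 23.1 CPM against 60.9, 51.8 and 38.4 CPM. No library of one group reached the other (log2 fold change 1.08, SE 0.20, edgeR adjusted p = 0.0915, DESeq2 adjusted p = 0.000207). The time of day at which glands were taken is not given in the sources used here.

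Of the immediate early genes, *Junb*, an AP-1 subunit, was higher (24.7, 34.1 and 26.02 CPM against 64.9, 41.2 and 76.5 CPM, log2 fold change 1.10, SE 0.25, edgeR adjusted p = 0.106). *Nr4a3*, an orphan nuclear receptor gene, was lower (8.31, 15.6 and 10.99 CPM against 6.21, 4.03 and 4.62 CPM, log2 fold change -1.23, SE 0.31, edgeR adjusted p = 0.118). Its relatives *Nr4a1* and *Nr4a2* were at 0.00 and 0.18 with overlapping groups. *Dusp1*, a phosphatase gene that dampens MAP kinases, was lower (30.6, 73.2 and 35.3 CPM against 21.1, 25.1 and 21.2 CPM, log2 fold change -1.05, edgeR adjusted p = 0.175), and at -0.55 without *Thy-Tet1*+/+ replicate 2 it was inside the limits, as it was without *Thy-Tet1*-/- replicate 1 (-1.03). Exons of *Junb* overlap 173 bases of *Prdx2* on the opposite strand.

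*Sst*, the somatostatin gene, which thyroid C cells can make, had 1.19, 4.44 and 3.66 CPM in *Thy-Tet1*+/+ and 19.2, 10.5 and 4.27 CPM in the knockout-labelled libraries. Its groups overlapped although it passed the limits (log2 fold change 1.84, SE 0.65, edgeR adjusted p = 0.207), and it was inside them without *Thy-Tet1*+/+ replicate 1, *Thy-Tet1*+/+ replicate 3 or *Thy-Tet1*-/- replicate 1, at 1.48, 1.96 and 1.196. The C cell marker list had a mean log2 CPM of 4.25 to 4.85 in *Thy-Tet1*+/+ and 4.73 to 5.24 in the knockout-labelled libraries, with 5 of 5 tested markers above 0. Its part in the *Sst* result was not tested. *Pck1*, a gluconeogenic gene that was the highest target per length, had a log2 fold change of 1.43 with an SE of 0.92.

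**Figure D5:**
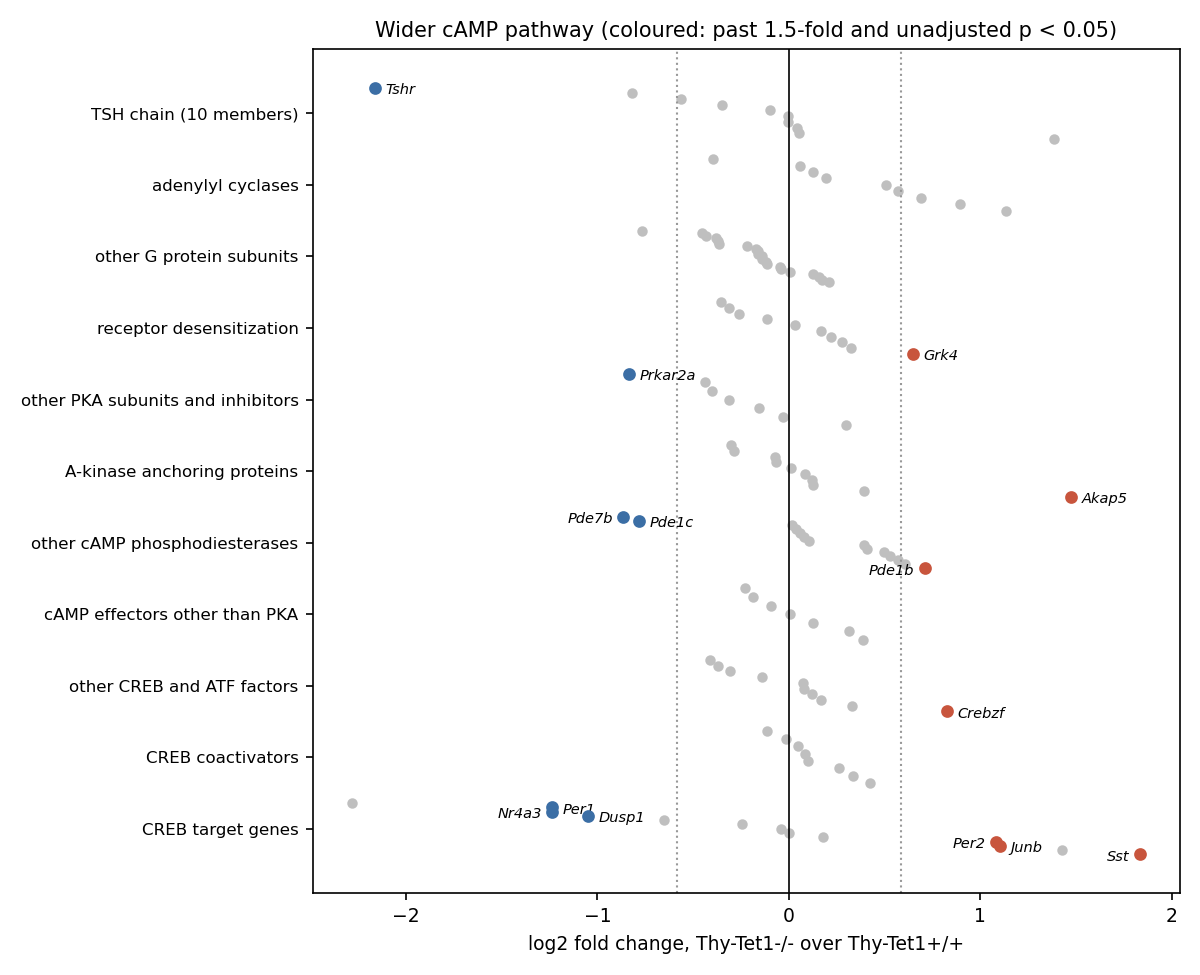
Log2 fold change (x axis, knockout-labelled libraries over *Thy-Tet1*+/+) of every tested gene in the chain and in 10 lists of the wider cAMP pathway (y axis), coloured and named where past the limits. Calls lie on both sides of 0, 7 higher and 6 lower among the 109 list genes, with the receptor farther out than any called list gene.

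Over all 11 lists of the wider pathway, 109 of 121 genes could be tested, 13 passed the limits (11.9%) and 26 had groups that did not overlap (23.9%). These shares are near those of all tested genes, 9.2% and 26.8%. Of the calls 7 were higher, where 5.54% of all tested genes were, and 6 lower, where 3.66% were. Their median log2 fold change was 0.03.

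The cAMP response element TGACGTCA, a palindrome that reads the same on both strands, was looked for in promoter windows of RefSeq (GRCm38.p6), which hold 250 bases before and 50 after each start site. The search covered windows of 8 of the 10 members. *Tshr*, which had no window, and *Crem* were not searched, so whether their promoters hold the element was not tested. The element was held by windows of 1 member, *Prkar1a*, and by 3.43% of the 11216 tested genes with a window. Shown here, because CREB factors bind this element, are the *Prkar1a* element and those of the 2 called target genes that have one, *Dusp1* and *Sst*, 5′ to 3′ on the gene's strand with the element in capitals.
*Prkar1a*: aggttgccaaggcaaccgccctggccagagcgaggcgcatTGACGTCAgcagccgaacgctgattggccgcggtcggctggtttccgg
*Dusp1*: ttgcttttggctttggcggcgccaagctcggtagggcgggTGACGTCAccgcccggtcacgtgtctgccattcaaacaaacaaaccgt
*Sst*: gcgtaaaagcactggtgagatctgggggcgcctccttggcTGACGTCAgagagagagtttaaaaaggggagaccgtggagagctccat
They lie at chr11:109650860-109650947 (forward strand), chr17:26508568-26508655 (reverse strand) and chr16:23890845-23890932 (reverse strand).

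In *Prkar1a* the element ends 41 bases before one annotated start and begins 38 bases after another. In *Dusp1* 135 bases and in *Sst* 40 bases separate it from the start. Of these 3 genes, *Prkar1a* had lower counts within the fold limit, *Dusp1* was lower past it and *Sst* higher past it, so that the same letters stood beside changes of opposite sign. The shorter core TGACG, or CGTCA on the other strand, which every full element contains, was in windows of 4 members, *Gnas*, *Prkaca*, *Prkar1a* and *Pde8b*, and in 33.7% of tested genes with a window. It was in all 12 of the target genes with a window, a list chosen from genes known to answer to CREB. A match describes letters and not a site in use.

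Finally, the genes whose pattern over the 6 libraries was most like that of *Tshr* were found by the root mean square difference of centred log2 CPM, in which 0 is an identical pattern and the median tested gene was at 1.14. Among the 5 nearest were *Nfe2*, a bZIP factor of blood lineages (0.269), *Omp*, the olfactory marker protein gene (0.335), *Ankrd9* (0.335) and *Mfsd2a*, a lipid transporter (0.371). *Ankrd9* had 31.3, 42.4 and 36.5 CPM in *Thy-Tet1*+/+ and 14.0, 13.7 and 7.67 CPM in the knockout-labelled libraries, without overlap and with a smaller fitted fold than *Tshr*. *Nfe2* and *Omp* had at most 37 counts in any library. Of the other members *Creb3* was the nearest to *Tshr*, at place 559 of 14142, followed by *Crem* at 670, and *Prkar2b* was at 13836.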

How the data were processed

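Thyroid RNA-seq of 6 mice, 3 per group by their labels, was analysed. The authors deposited raw, unscaled read counts of 21878 genes, of which 4100 had no read, with 0 further columns of values. The build is given as mm10 in the submitters' processing notes. The aligner, the counting program and its strand setting are not given in the sources used here. The library protocol names poly(A) selection and 2 kits, a directional one among them, and speaks of retinas, while the source is thyroid. 27 symbols turned into dates were restored from gene identifiers.

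Counts were filtered with filterByExpr, scaled by TMM and compared with glmQLFit and glmQLFTest of edgeR 4.0.16 in R 4.3.3, with Benjamini-Hochberg adjustment over all 14143 genes tested. CPM used TMM-scaled library sizes, and log2 CPM had a prior count of 2. The SE given with edgeR values is not an output of edgeR. It was derived as the absolute log2 fold change divided by the square root of the test's F statistic. The common biological coefficient of variation was 0.327, so the spread between mice limits most comparisons more than depth. DESeq2 1.42.0, limma-voom (limma 3.58.1), RLE size factors, other filters, epithelial scaling, a muscle covariate, a replicate block and each library left out were alternatives. Adipocyte and parathyroid covariates, and the share without *Prkar2b*, were added after seeing the data. Exact permutation tests were two-sided. Exon overlaps and lengths came from GENCODE M21, and gene spans and promoters from RefSeq tables of GRCm38.p6. The edgeR code was tested on simulated data.

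The members and lists were chosen with earlier results of these data known. Named were all members, *Tet1*, follicular genes set beside *Tshr*, the called genes of each list (at most 4 by p), its highest gene per length, and the 5 genes nearest to *Tshr*, of which 1 is not reported here. *Gcm2* and other markers, *Adcy6*, *Gnb1*, *Grk5*, *Nr4a1*, *Nr4a2* and the called targets beyond 4 were named after their values were seen.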

Additional observations from a re-analysis of the deposited data

How the results depend on the processing

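The fall of *Tshr* kept its direction in every alternative, and it missed an adjusted p of 0.05 in edgeR with a muscle (-2.005), adipocyte (-2.12) or parathyroid (-2.24) covariate and with any library left out (-2.29 to -2.03). Replicate numbers did not pair the samples (correlation of same-numbered deviations -0.167, -0.372 and -0.193). With the number as a replicate block *Tshr* was at -2.16 (edgeR adjusted p = 0.242), 0 genes had an adjusted p under 0.05 (1900 had an unadjusted one), 2 members passed the limits, *Tshr* and *Prkar2b* (1.46), and *Pde8b* was at 0.037 and *Creb1* at 0.001.

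Genes past the limits rose from 1301 to 3560, and list genes past them from 13 to 27, under epithelial scaling, which moved the median of all genes to 0.44 and the share of calls that were higher from 60.2% to 97.4%. Against that shift, *Prkar1a* was at 0.08, *Pde8b* at 0.46, *Pde4d* at 0.32, *Creb1* at 0.42, *Gnb1* at 0.003, *Grk5* at 0.081 and *Tg* at 0.016, and 2 members passed, *Tshr* and *Prkar2b* (1.78). Adjusted calls, 16 in edgeR, were 1192 by DESeq2, 25 with at least 10 counts per library, 1601 under epithelial scaling, 0 with each covariate (1622 unadjusted with muscle, 2276 with adipocyte, 2333 with parathyroid) and 0 to 1 with a library left out (1769 to 2980 unadjusted). Members past the limits were 2 by limma-voom (with *Prkar2b*), 2 with the adipocyte covariate (with *Creb3*), 3 with the parathyroid one (with *Creb3* and *Crem*) and 1 to 3 with a library left out, where all genes past the limits were 1074 to 1502 and list genes 10 to 15.

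Members near 0 changed sign. *Gnas* was at -0.20 with the parathyroid covariate, *Pde8b* at 0.008 by RLE, 0.28 with the adipocyte and 0.11 with the parathyroid covariate, *Pde4d* at 0.21 with the muscle covariate, and *Creb1* at 0.007 by RLE, 0.008 by DESeq2, 0.012 by limma-voom and 0.009 with the count minimum. With a library left out the ranges were -0.21 to 0.47 for *Gnas*, -0.11 to 0.15 for *Prkaca*, -0.20 to 0.18 for *Pde8b*, -0.353 to 0.033 for *Pde4d* and -0.14 to 0.17 for *Creb1*. The type II share differed by -3.61 percentage points without *Prkar2b* and by 1.98 to 9.06 with a library left out. Beyond the covariate values and the construction of the scaling, the cause of these changes was not tested. Depth limits *Pde8b* most, with 6 to 25 counts per library.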

Other observations

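Several genes of the wider pathway that are known from other tissues varied between libraries more than between groups, as seen after their values were examined. *Pkia*, which encodes a PKA inhibitor peptide abundant in muscle, had 16.5, 10.6 and 21.5 CPM in *Thy-Tet1*+/+ and 4.195, 38.7 and 4.73 CPM in the knockout-labelled libraries. The muscle list had a mean log2 CPM of 9.23, 6.36 and 8.77 and of 3.59, 9.58 and 1.33 in the same libraries. *Bves* and *Popdc3*, cAMP-binding Popeye genes of striated muscle, were highest in the same library, *Thy-Tet1*-/- replicate 2, at 3.44 and 3.97 CPM, and at most 0.218 CPM in *Thy-Tet1*-/- replicates 1 and 3.

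*Pkib*, another PKA inhibitor gene, had 8.42, 3.21 and 32.2 CPM in *Thy-Tet1*+/+ and 15.1, 21.2 and 17.8 CPM in the knockout-labelled libraries, lowest in *Thy-Tet1*+/+ replicate 2, where *Pth*, *Gcm2*, *Casr*, *Chga* and *Tbx1* of the 6 parathyroid markers were also lowest. *Pck1* and *Pde3b*, both active in fat, were highest in *Thy-Tet1*-/- replicate 1, at 387 and 49.9 CPM, and lowest in *Thy-Tet1*+/+ replicate 3, at 16.3 and 11.3 CPM, as the adipocyte markers were. None of these genes passed the limits, and the part of the neighbouring tissues in their values was not tested.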
